A study of Mus musculus with 12 samples.

Results

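The genes described here are 39 members of FGF and ERK signalling, with the ligand Hgf and its receptor Met, out of 22911 genes measured by RNA-seq in mouse epiblast-like cells (EpiLCs) with and without Kdm5c. They were taken as a named list, and the levels in the 4 groups and the ratio of knockout to control in each sex were known when the list was drawn up, so the counts of changed members are a description of these genes and no test of the pathway. All 39 were found, as 5 ligands (Fgf4, Fgf8, Fgf10, Fgf15, Hgf), 5 receptors (Fgfr1, Fgfr2, Fgfr3, Fgfr4, Met), 4 adaptors (Grb2, Sos1, Shc1, Ptpn11), 5 kinases (Araf, Braf, Map2k1, Map2k2, Mapk3), 9 feedback inhibitors (Spry1, Spry2, Spry4, Spred1, Spred2, Dusp4, Dusp5, Dusp6, Dusp7), 3 ETS factors (Etv1, Etv4, Etv5) and 8 immediate early genes (Egr1, Fos, Fosl1, Jun, Junb, Ier2, Ier3, Myc).

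An FGF or HGF ligand binds a receptor tyrosine kinase, which recruits the adaptors Grb2, Shc1 and Sos1 and the phosphatase Ptpn11, activates RAS, and passes the signal through RAF kinases, the MEKs Map2k1 and Map2k2, and the ERK Mapk3. Active ERK switches on immediate early genes and ETS factors of the Etv4 family, and also its own brakes, among them the Sprouty and Spred proteins and the dual-specificity phosphatases. In mouse pluripotent cells Fgf4 is the main ligand made by the cells themselves, and this signal moves cells out of the naive state and into the primitive endoderm or the epiblast.

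The 12 libraries came from 3 embryonic stem cell lines of each of 4 genotypes, labelled strain C57BL/6J, while the study's methods give a mixed genetic background for the floxed Kdm5c line. The controls carried floxed, undeleted Kdm5c (females Kdm5c fl/fl, called fWT, and males Kdm5c flY, called mWT, labelled Smcx wild type after an older name of the gene). The knockouts lacked exons 11 and 12, which encode the demethylase domain (females Kdm5c Δ/Δ, called fKO, and males Kdm5c ΔY, called mKO, labelled Smcx knockout). Every line was grown for 4 passages with LIF, a GSK3 inhibitor and 1 µM of the MEK inhibitor PD0325901, and was then given 10 ng/ml FGF2 and 20 ng/ml Activin A for 48 hours. All groups therefore had the pathway blocked first and then received an FGF from outside the cells, so the endogenous ligands were measured on top of a supplied one.

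Values are normalized counts, that is, reads per gene divided by a size factor of the library. The deposited values are means of 3 libraries, from which the reads of each library were recovered for 22808 genes, and the libraries of a group are named A, B and C with no tie to the replicate numbers in the labels. Depth ran from 5354215 to 10863314 recovered reads a library. Reads of Kdm5c outside the deleted exons do not check the deletion, and the normalized count of the whole gene was 2315 to 2429 in fWT, 1406 to 1505 in fKO, 2110 to 2371 in mWT and 1897 to 1976 in mKO.

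Some libraries stood apart from the rest of their group. Of the 39 members, 11 were over 2-fold away from the mean of B and C in mKO library A, and 6 were over 2-fold away from the mean of A and C in mWT library B, against 0 to 3 for any other library. The libraries mWT A and mWT C had 0.157% and 0.171% of their reads on 1459 olfactory and vomeronasal receptor genes, which EpiLCs are not known to use, while the other 10 libraries had 0.0217% to 0.0409%. These features split the male libraries only, and male values without mKO A, or without both mKO A and mWT B, are given where the call changed. Leaving out libraries because they stood apart in these same data narrows the spread, so those values are descriptions.

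The proximal promoters of 4 members are shown, with Hgf and Fgfr4 as the ligand and the receptor with the widest fall and rise of their class in females, and Dusp5 and Fos as ERK-responsive genes that carry known response elements. Each line gives the 250 bases before the start site, 5′ to 3′, from RefSeq on GRCm38.p6 (Hgf chr5:16553245-16553494, Fgfr4 chr13:55152568-55152817, Dusp5 chr19:53528895-53529144, Fos chr12:85473640-85473889, all on the + strand). Capitals mark CG dinucleotides in Hgf and Fgfr4, CArG boxes (the site of serum response factor) in Dusp5, and TGACG (the core of the cAMP response element) and TATAAA in Fos.
Hgf: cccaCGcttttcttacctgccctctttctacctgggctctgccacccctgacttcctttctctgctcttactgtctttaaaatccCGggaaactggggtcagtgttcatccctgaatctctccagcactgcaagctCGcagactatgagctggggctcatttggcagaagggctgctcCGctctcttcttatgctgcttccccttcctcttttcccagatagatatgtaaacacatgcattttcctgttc
Fgfr4: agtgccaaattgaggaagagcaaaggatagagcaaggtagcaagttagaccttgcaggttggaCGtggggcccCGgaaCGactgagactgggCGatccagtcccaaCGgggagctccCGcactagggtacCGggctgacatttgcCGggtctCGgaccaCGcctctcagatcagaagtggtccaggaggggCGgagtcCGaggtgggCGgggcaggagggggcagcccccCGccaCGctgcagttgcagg
Dusp5: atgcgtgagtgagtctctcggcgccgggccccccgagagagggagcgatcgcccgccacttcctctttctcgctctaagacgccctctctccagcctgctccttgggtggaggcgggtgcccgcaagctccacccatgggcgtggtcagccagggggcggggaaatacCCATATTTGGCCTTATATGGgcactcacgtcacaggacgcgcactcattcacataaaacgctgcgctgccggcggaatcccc
Fos: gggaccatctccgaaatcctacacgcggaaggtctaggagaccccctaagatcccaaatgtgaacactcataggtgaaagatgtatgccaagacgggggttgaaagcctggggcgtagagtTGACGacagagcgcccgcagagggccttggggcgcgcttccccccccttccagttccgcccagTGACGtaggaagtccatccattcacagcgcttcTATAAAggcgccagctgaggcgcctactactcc

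The Hgf window held 4 CG dinucleotides and the Fgfr4 window 15, against a median of 6 over all 32851 RefSeq windows of this length. Windows were matched for 28 of the 39 members, and the window richest in CG of each ran from 2 (Fgfr2) to 34 (Dusp7) with a median of 20.5. That median takes the richest window of a gene, which can only raise it, and is unlike the median over all windows. The Dusp5 window held 2 adjoining CArG boxes, which began 82 and 72 bases before the start. No window of another matched member, Fos included, held one. Bases upstream of the windows were not searched. Dusp4, Egr1, Etv4, Fgf15, Fgf8, Fgfr1, Fosl1, Ier2, Mapk3, Myc and Spry4 had no matched window. Whether Fos or another member carries a CArG box outside the windows shown or matched was therefore not tested. A CArG box was present in 1.47% of all windows. The Fos window held TGACG at 129 and 66 bases and TATAAA at 33 bases before the start. On either strand TGACG was present in 17.8% and TATAAA in 12.4% of all windows, and in 7 and 3 of the 28 matched members. These matches are letters in a window and were not tested as binding sites or as sites of a response to ERK.

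**Figure D1:**
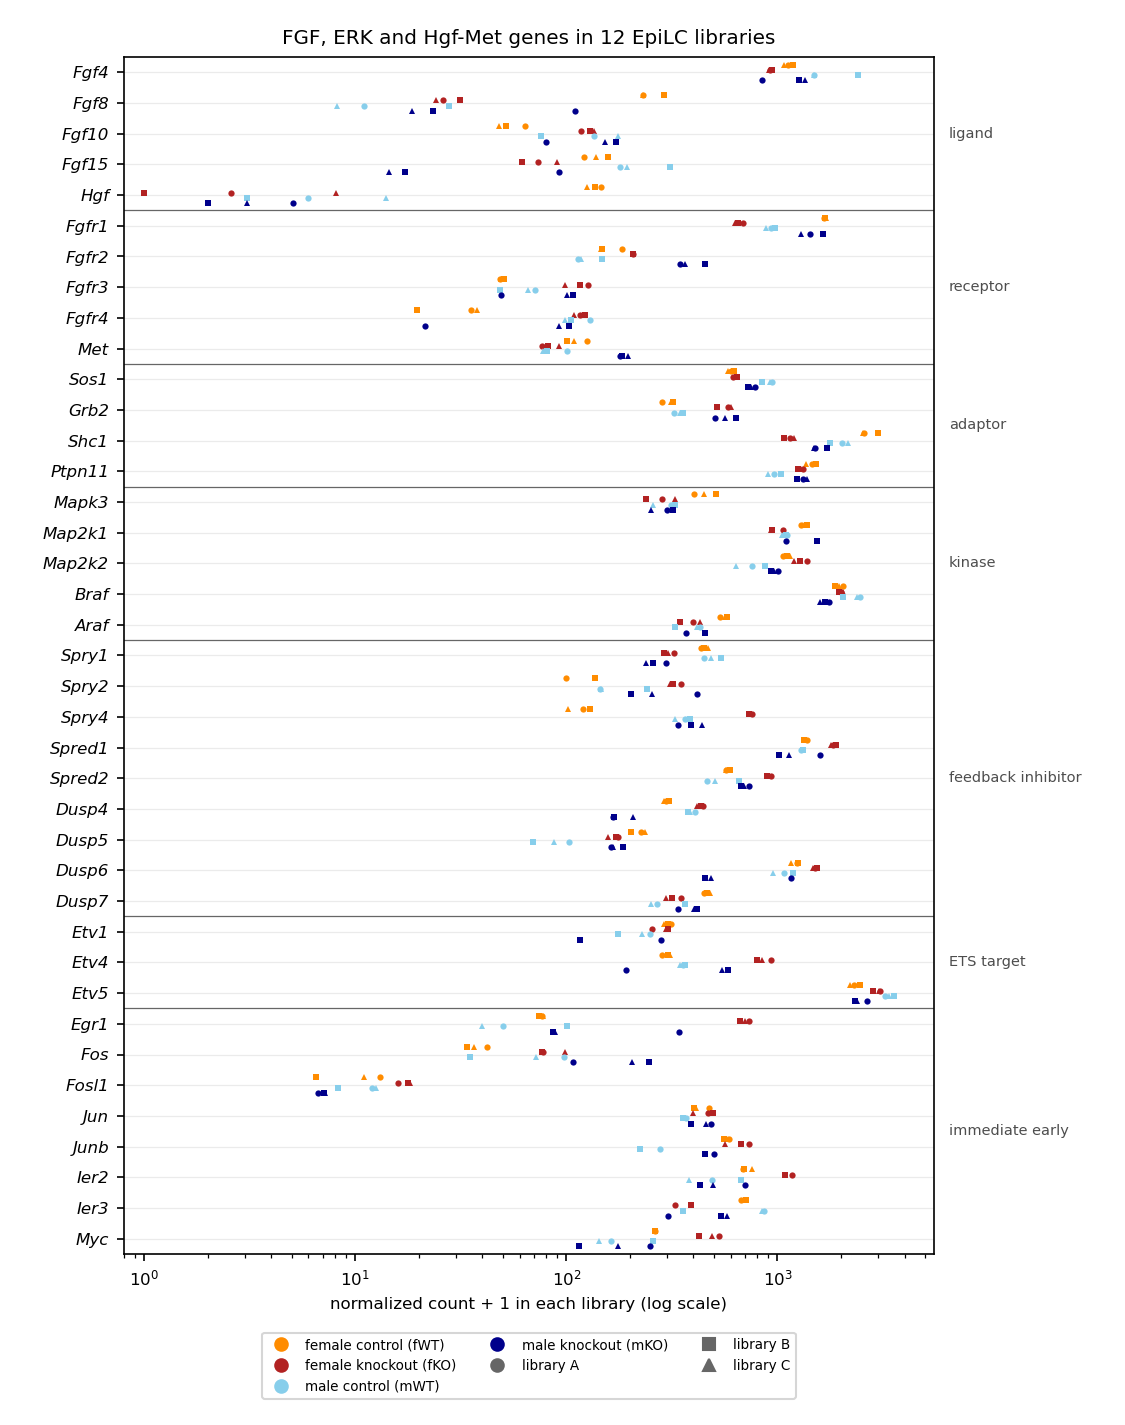
Normalized count plus 1 of each of the 39 members (log scale) in the 12 libraries, grouped by role, with colour for the group and shape for the library. Hgf lies at 124 to 145 in fWT and at 12.9 or less in every other library, and mKO library A (circle) sits away from mKO B and C for Fgf8, Fgf15, Fgfr4, Dusp6 and Egr1.

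In female cells nearly the whole list differed between knockout and control, and it did not move in 1 direction. Of the 39 members 33 passed at an adjusted p under 0.05 (limma on log2 of the normalized count plus 1, with Benjamini-Hochberg adjustment over all genes tested), 18 higher and 15 lower in fKO. In the same comparison 50.1% of the 19572 genes tested passed, 25.4% higher and 24.7% lower. The 19572 include genes with few reads, while all 39 members had a mean of at least 10 in females. A share over genes of like level is not given here. The fKO and fWT libraries did not overlap for 34 members, as for 54.8% of all genes tested. The median log2 difference was 0.18 over the members and 0.00 over all genes. The widest changes were the loss of Hgf and Fgf8 and the gain of Egr1 and Spry4. In male cells 12 of 39 passed, 7 higher and 5 lower in mKO, where 7.80% of the 21872 genes tested passed (4.21% higher and 3.59% lower). The groups did not overlap for 20 members, as for 26.5% of all genes tested in males. The median log2 difference in males was 0.11 over the members and -0.16 over all genes, or 0.00 over genes with a mean of at least 10.

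Of the 12 members that passed in males 10 also passed in females, and the direction differed in 6 of the 10. Among them, Fgf15, Fgfr2, Spry1 and Grb2 moved the same way and the other 6 (Fgfr1, Met, Dusp4, Dusp5, Etv5, Ptpn11) moved opposite ways. Junb and Braf passed in males and not in females, and Etv1, Fosl1, Jun and Sos1 passed in neither. The test of the difference itself, an interaction over all 12 libraries, was passed by 23 members, where 21.2% of the 22014 genes tested passed. The controls of the sexes also differed, with 18 members past the threshold between fWT and mWT against 21.5% of all genes. The fWT libraries enter both the female comparison and the comparison of controls, so the values are given side by side.

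**Figure D2:**
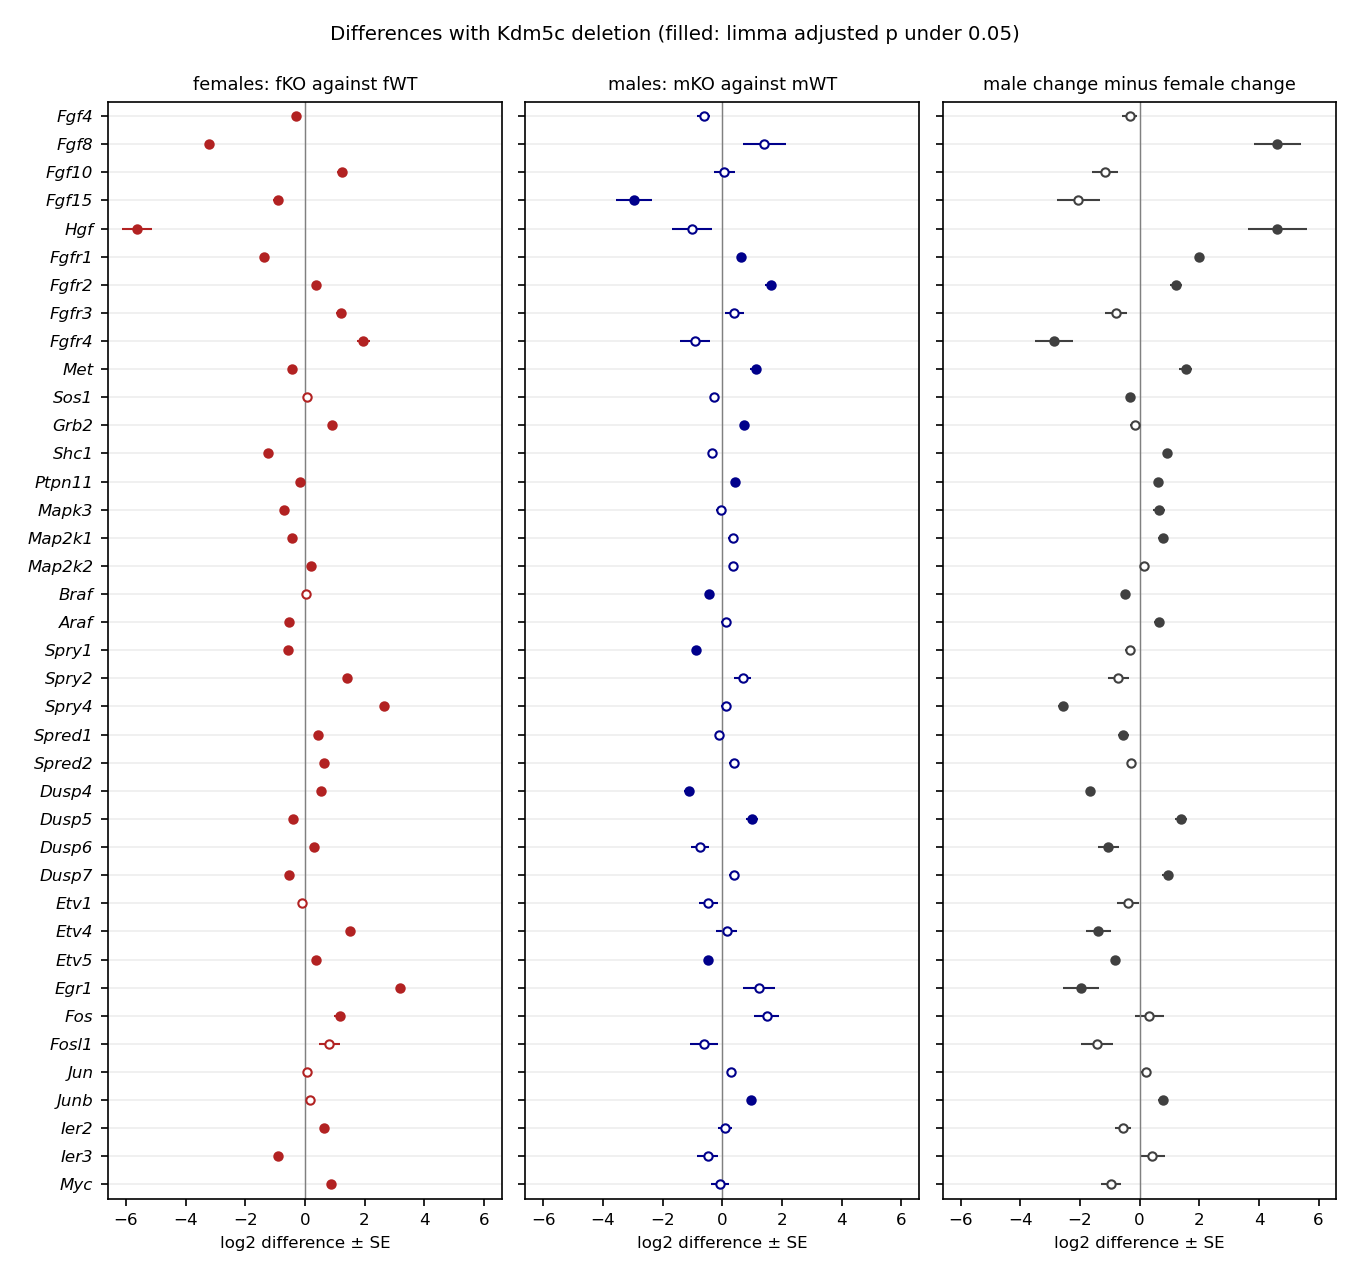
Log2 difference ± SE of each member between knockout and control in females (left) and in males (middle), and the male change minus the female change (right), with filled points where the limma adjusted p was under 0.05. In females 33 points are filled, from -5.62 for Hgf to 3.20 for Egr1, and in males 12 are filled, from -2.96 for Fgf15 to 1.62 for Fgfr2.

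Among the ligands, Hgf showed the widest difference of any member. Hgf, the ligand of Met and a growth factor typical of mesenchymal cells, had normalized counts of 145, 135 and 124 in the fWT libraries and 1.57, 0 and 7.07 in the fKO libraries. In males it was 4.99, 2.07 and 12.9 in mWT and 4.06, 1.01 and 2.07 in mKO. Only the fWT libraries were high. The fKO values rest on 2, 0 and 7 reads. The log2 difference in females was -5.62 ± 0.50 (SE, adjusted p = 3.26e-08 by limma) and its size depends on the pseudocount. In males it was -1.01 ± 0.68 (adjusted p = 0.365), at 1 to 9 reads a library, and -1.88 ± 0.57 without mKO A and mWT B (adjusted p = 0.0384). The female and male controls differed by 4.42 ± 0.70 (adjusted p = 6.91e-04).

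The fWT libraries that were high in Hgf also held more of some fibroblast genes. The sum of 10 fibroblast markers was 2558 to 2604 in fWT, 965 to 1041 in fKO, 786 to 1041 in mWT and 4702 to 5200 in mKO. Of the 10, 5 were lower in fKO with 0 higher, and 6 were higher in mKO with 0 lower. Over all genes tested 24.7% were lower in fKO and 4.21% higher in mKO. The sum was highest in mKO, where Hgf had at most 5 reads. Among the 10, Postn was 42.2 to 68.4 in fWT and 3.13 to 7.58 in fKO and so was high with Hgf in females, but it was 82.8 to 117 in mKO. Pdgfrb was 52.7 to 70.4 in fWT, 20.2 to 28.3 in fKO and 121 to 204 in mKO. Dcn was at or below 8.78, Lum at or below 3.99 and Twist2 at or below 8.78 normalized counts in every library, and the sum is mostly Col1a1 and Col1a2. The cell lines were derived on fibroblast feeders, and the part of fibroblasts in the Hgf result was not tested. In bulk RNA, fewer cells of a type and less RNA per cell cannot be told apart.

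Fgf8, a ligand of the primitive streak and many later signalling centres, was 230, 288 and 230 in fWT and 25.1, 30.3 and 23.2 in fKO. The male values were 9.97, 26.9 and 7.19 in mWT and 109, 22.3 and 17.6 in mKO. The fWT libraries were above all others, and mKO A stood above the other male libraries. Fgf8 fell by 3.20 ± 0.15 on the log2 scale in females (adjusted p = 7.49e-12), a 9.21-fold difference, and the male difference of 1.42 ± 0.71 did not pass (adjusted p = 0.249). Without mKO A it was 0.62 ± 0.56 (adjusted p = 0.485), and without mKO A and mWT B 1.13 ± 0.36 (adjusted p = 0.0439). The streak gene T was also highest in fWT, at 82.5, 114 and 93.4, against 5.89 to 18.2 in fKO, 6.20 to 14.4 in mWT and 1.01 to 18.7 in mKO. The 6 mesendoderm markers did not move with T as a whole, with sums of 275 to 307 in fWT and 338 to 352 in fKO. Of the 6, T included, 3 were higher and 1 was lower in fKO. The part of streak-like cells in the Fgf8 result was not tested.

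Fgf15, which in the mouse embryo is made in neural and endodermal tissue, was 121, 157 and 138 in fWT and 72.1, 60.6 and 88.9 in fKO. Male libraries gave 179, 308 and 193 in mWT against 91.7, 16.2 and 13.4 in mKO. The groups did not overlap in either sex, and mKO B and C were the lowest of the 12 libraries. Fgf15 fell by 0.91 ± 0.15 in female cells (adjusted p = 5.74e-05) and by 2.96 ± 0.61 in male cells (adjusted p = 0.0200) on the log2 scale. It lies with Fgf4 on chromosome 7 (mm9, 152082437 to 152086858, against 152047291 to 152051148 for Fgf4), and 26.4% of its exon bases overlap an exon of the opposite-strand gene Gm17685. Whether the counting used strand is not given in the sources used here.

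Fgf4 was the most abundant of the 4 FGF ligands per length in every group. Its normalized counts were 1122, 1189 and 1078 in fWT, 917, 937 and 912 in fKO, 1487, 2419 and 1493 in mWT, and 847, 1269 and 1352 in mKO. The highest single value was in mWT B, and knockouts lay below controls of their own sex without overlap. Fgf4 fell by 0.29 ± 0.06 on the log2 scale in females (adjusted p = 3.35e-04), and the male difference of -0.63 ± 0.23 did not pass (adjusted p = 0.125). It was -0.19 ± 0.06 without mKO A and mWT B (adjusted p = 0.0385). Fgf10, a mesenchymal ligand of Fgfr2, was 62.4, 50.5 and 46.7 in fWT and 117, 128 and 134 in fKO, and so was the only ligand that rose in females (1.24 ± 0.15, adjusted p = 1.27e-06). Its male libraries ran from 74.4 to 174 in mWT and from 78.7 to 170.3 in mKO and overlapped.

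Per kb of merged exon, Fgf4 made up 57.8% ± 1.91 (SD, n = 3) of the summed 4 FGF ligands in fWT and 77.6% ± 1.52 in fKO. The difference came with the share of Fgf8, which was 28.5% ± 1.54 in fWT and 4.95% ± 0.70 in fKO. In males the share of Fgf8 was 1.33% ± 0.59 in mWT and 2.61% to 18.8% over the mKO libraries. Fgf15 took 16.5% ± 0.57 in mWT and 1.49% to 11.8% in mKO.

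**Figure D3:**
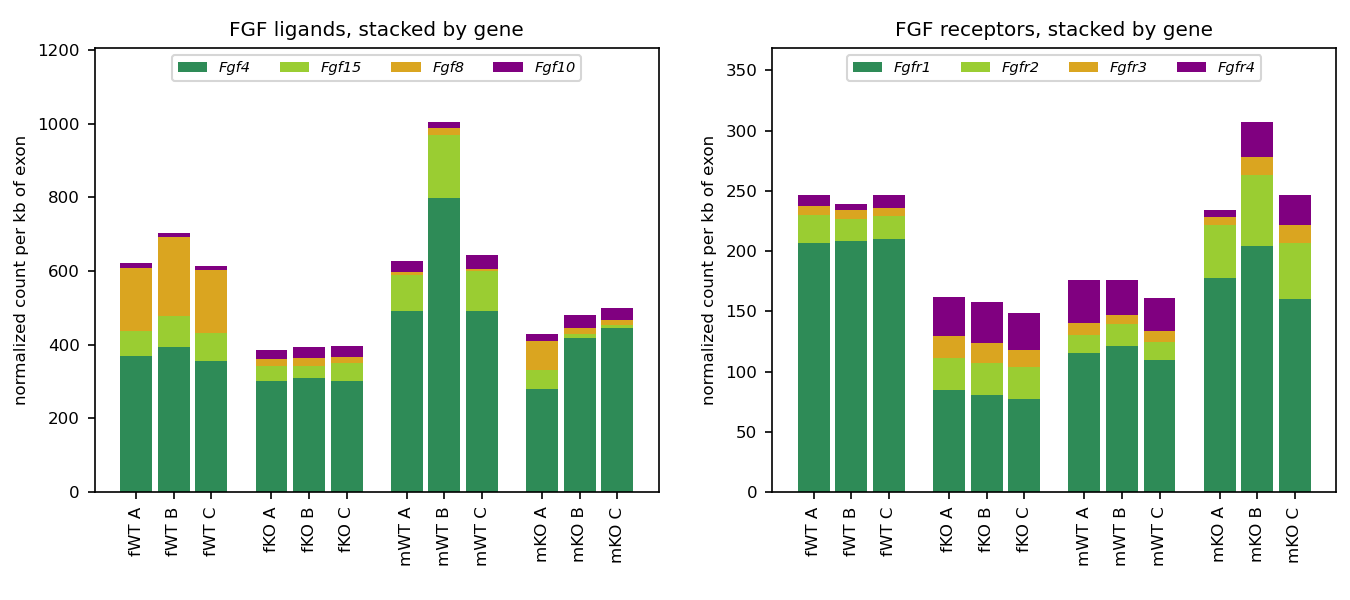
Normalized count per kb of merged exon, stacked by gene, for 4 FGF ligands (left) and the 4 FGF receptors (right), with 1 bar per library. Fgf8 is a visible layer in the fWT bars and in mKO A, and Fgfr1 makes up 85.4% of the receptor sum in fWT and 52.0% in fKO.

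Among the receptors, the female knockout had less Fgfr1 and more of the other FGF receptors. Fgfr1, the main FGF receptor of epiblast cells, was 1667, 1679 and 1695 in fWT and 685, 651 and 625 in fKO. Among males Fgfr1 was 931, 974 and 881 in mWT and 1430, 1649 and 1290 in mKO. Each group was apart from the control of its sex, and the directions were opposite. Fgfr1 fell by 1.36 ± 0.06 on the log2 scale in female cells (adjusted p = 1.35e-12) and rose by 0.64 ± 0.12 in male cells (adjusted p = 0.0153), with a difference between the sexes of 2.00 ± 0.13 (adjusted p = 3.12e-07). The male call was lost without mWT A, mWT C or mKO B (adjusted p = 0.0817, 0.1000 and 0.0783), with log2 differences of 0.55 to 0.64.

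Fgfr4, a receptor of primitive endoderm and of liver, was 34.2, 18.7 and 36.7 in fWT and 114, 122 and 107 in fKO. The values were 129, 104 and 97.7 in mWT and 20.3, 102 and 91.0 in mKO. The low values were those of the fWT libraries and of mKO A. Fgfr4 rose by 1.96 ± 0.22 in females (adjusted p = 4.88e-07), and the male difference was -0.91 ± 0.52 with mKO A (adjusted p = 0.298) and -0.18 ± 0.19 without it (adjusted p = 0.555). The interaction was -2.87 ± 0.65 (adjusted p = 6.10e-03). Fgfr3 had the same low libraries, at 47.3, 49.4 and 47.8 in fWT and 47.9 in mKO A, with mWT B at 47.6, against 126, 115 and 97.0 in fKO and 106 and 99.3 in mKO B and C. It rose by 1.20 ± 0.15 in females (adjusted p = 2.29e-06), and the male difference was 0.41 ± 0.33 (adjusted p = 0.461). Without mKO A the male difference was 0.77 ± 0.23 (adjusted p = 0.0427), and without mWT B as well 0.61 ± 0.15 (adjusted p = 0.0182).

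Fgfr2, the receptor of epithelial cells and of early endoderm, rose in both sexes. It was 183, 146 and 144 in fWT and 205, 205 and 206 in fKO, and 113, 147 and 116 in mWT against 343, 454 and 365 in mKO. The highest 3 libraries were those of mKO. The log2 differences were 0.39 ± 0.10 in females (adjusted p = 4.41e-03) and 1.62 ± 0.17 in males (adjusted p = 1.09e-03), and they differed by 1.23 ± 0.20 (adjusted p = 7.18e-04). In the annotation used for lengths, 1 transcript of Fgfr2 reaches Ctbp2 and shares 314 exon bases with it.

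Met, the receptor of Hgf, moved opposite ways in the sexes. It was 125, 99.9 and 108 in fWT, 75.2, 80.8 and 90.9 in fKO, 99.7, 79.6 and 76.2 in mWT, and 178, 182 and 196 in mKO. The mKO libraries were the highest, in cells where Hgf was near 0. Met fell by 0.42 ± 0.14 on the log2 scale in female cells (adjusted p = 0.0144) and rose by 1.12 ± 0.18 in male cells (adjusted p = 7.75e-03). The female call was lost without fWT A (adjusted p = 0.0790) or fKO A (0.0617), and the male one without mWT C (0.0585).

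Per kb, the share of Fgfr1 in the summed FGF receptors was 85.4% ± 1.59 in fWT, 52.0% ± 0.78 in fKO, 67.3% ± 1.63 in mWT and 69.1% ± 5.88 in mKO (SD, n = 3 each). Fgfr4 took 3.43% ± 1.08 in fWT, 20.6% ± 0.96 in fKO and 18.1% ± 2.11 in mWT, and 2.44% to 10.4% over the mKO libraries. The Fgfr4 share was lowest in fWT and in mKO A.

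Among the adaptors and kinases, Shc1 was the 1 gene called with a log2 difference of at least 1, in females. Shc1, an adaptor that links receptors to Grb2, was 2574, 2991 and 2537 in fWT and 1141, 1074 and 1198 in fKO, and fell by 1.24 ± 0.07 on the log2 scale (adjusted p = 3.49e-11). The male libraries held 2024, 1778 and 2153 in mWT and 1512, 1713 and 1495 in mKO (-0.33 ± 0.12, adjusted p = 0.123, and -0.38 ± 0.08, adjusted p = 8.33e-03, without mKO A and mWT B). Grb2 rose in both sexes, by 0.90 ± 0.08 in female cells (adjusted p = 1.98e-08) and by 0.73 ± 0.13 in male cells (adjusted p = 0.0118). Ptpn11, the phosphatase SHP2, fell by 0.17 ± 0.06 in female cells (adjusted p = 0.0202) and rose by 0.43 ± 0.11 in male cells (adjusted p = 0.0462), and both calls are weak, with an adjusted p up to 0.104 in females and 0.206 in males when 1 library was left out. Sos1, the RAS exchange factor, passed in neither sex (0.06 ± 0.06 and -0.26 ± 0.11), and its male difference was -0.34 ± 0.06 without mKO A and mWT B (adjusted p = 5.25e-03).

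Of the 5 kinases, 4 passed in females, where 50.1% of all genes tested passed. Mapk3, which encodes ERK1, fell by 0.70 ± 0.10 on the log2 scale (adjusted p = 1.84e-05), Map2k1 fell by 0.44 ± 0.06 (adjusted p = 8.40e-06) and Map2k2 rose by 0.22 ± 0.06 (adjusted p = 6.97e-03). Araf, which lies on the X chromosome, fell by 0.52 ± 0.08 (adjusted p = 1.99e-05), from 536 to 575 in fWT to 343 to 426 in fKO, and the male libraries ran from 328 to 453. In these same libraries Xist, the RNA that coats the inactive X, was 1245 to 1406 in fWT and 237 to 290 in fKO. Male Xist was 249 to 496 in mWT and 184 to 313 in mKO. The part of Xist in the Araf result was not tested. Braf did not pass in females (0.03 ± 0.05, adjusted p = 0.674) and fell by 0.45 ± 0.12 in males (adjusted p = 0.0468), a call that was lost without mWT A, mWT C, mKO B or mKO C (adjusted p up to 0.203).

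The feedback inhibitors all passed in females, 6 higher and 3 lower, and 3 of 9 passed in males, where 50.1% and 7.80% of all genes passed. Spry4, a Sprouty protein switched on by FGF, was 119, 129 and 101 in fWT and 759, 728 and 733 in fKO. Among males Spry4 was 363, 383 and 328 in mWT and 336, 390.2 and 437 in mKO. The fWT libraries were the lowest and the fKO libraries the highest, with both male groups between them and overlapping. Spry4 rose by 2.67 ± 0.09 in females (adjusted p = 4.95e-14), a 6.35-fold difference, and the male difference was 0.11 ± 0.14 (adjusted p = 0.638). The difference between the sexes was -2.56 ± 0.17 (adjusted p = 3.56e-07), and the controls of the sexes differed by -1.62 ± 0.12.

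Spry2 also rose in females, from 98.6, 136 and 136 to 349, 319 and 310.2 (1.41 ± 0.11, adjusted p = 1.11e-08). The male libraries ran from 143 to 241 in mWT and from 201 to 415 in mKO and overlapped (0.69 ± 0.29, adjusted p = 0.176, and 0.65 ± 0.14, adjusted p = 0.0104, without mKO A and mWT B). Spry1, the third Sprouty on the list, went the other way in both sexes. It fell by 0.56 ± 0.07 in female cells (adjusted p = 3.41e-06) and by 0.89 ± 0.14 in male cells (adjusted p = 6.96e-03) on the log2 scale. Spred1 and Spred2, which bind RAS and RAF, rose by 0.45 ± 0.05 and 0.65 ± 0.06 in females, and neither passed in males with all libraries.

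Among the phosphatases, Dusp6 acts on ERK in the cytoplasm and is a standard readout of FGF signalling. It was 1233, 1246 and 1156 in fWT and 1505, 1538 and 1471 in fKO. Male values were 1070, 1183 and 949 in mWT and 1161, 452 and 485 in mKO. The low values were those of mKO B and C, while mKO A lay within the range of the controls. Dusp6 rose by 0.31 ± 0.06 in females (adjusted p = 1.14e-04). In males the difference was -0.74 ± 0.31 with all libraries (adjusted p = 0.172) and -1.18 ± 0.12 without mKO A (adjusted p = 1.94e-04).

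Dusp4 and Dusp5, phosphatases of the nucleus, passed in opposite directions in the sexes and against each other. Dusp4 was 295, 304 and 290.2 in fWT, 443, 432 and 414 in fKO, 408, 376 and 382 in mWT, and 166, 166 and 205 in mKO. It rose by 0.53 ± 0.07 in female cells (adjusted p = 4.16e-06) and fell by 1.12 ± 0.14 on the log2 scale in male cells (adjusted p = 2.62e-03). The male fall held in every library, mKO A included. Dusp5, whose promoter is shown above with its paired CArG boxes, was 225, 201 and 236 in fWT, 176, 172 and 157 in fKO, 102, 68.2 and 86.2 in mWT, and 161, 184 and 165 in mKO. It fell by 0.39 ± 0.10 in female cells (adjusted p = 2.23e-03) and rose by 1.00 ± 0.20 in male cells (adjusted p = 0.0180). Dusp7 fell by 0.54 ± 0.08 in females (adjusted p = 7.66e-06), and the male difference was 0.40 ± 0.17 (adjusted p = 0.184), or 0.66 ± 0.08 without mKO A and mWT B (adjusted p = 1.32e-03).

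**Figure D4:**
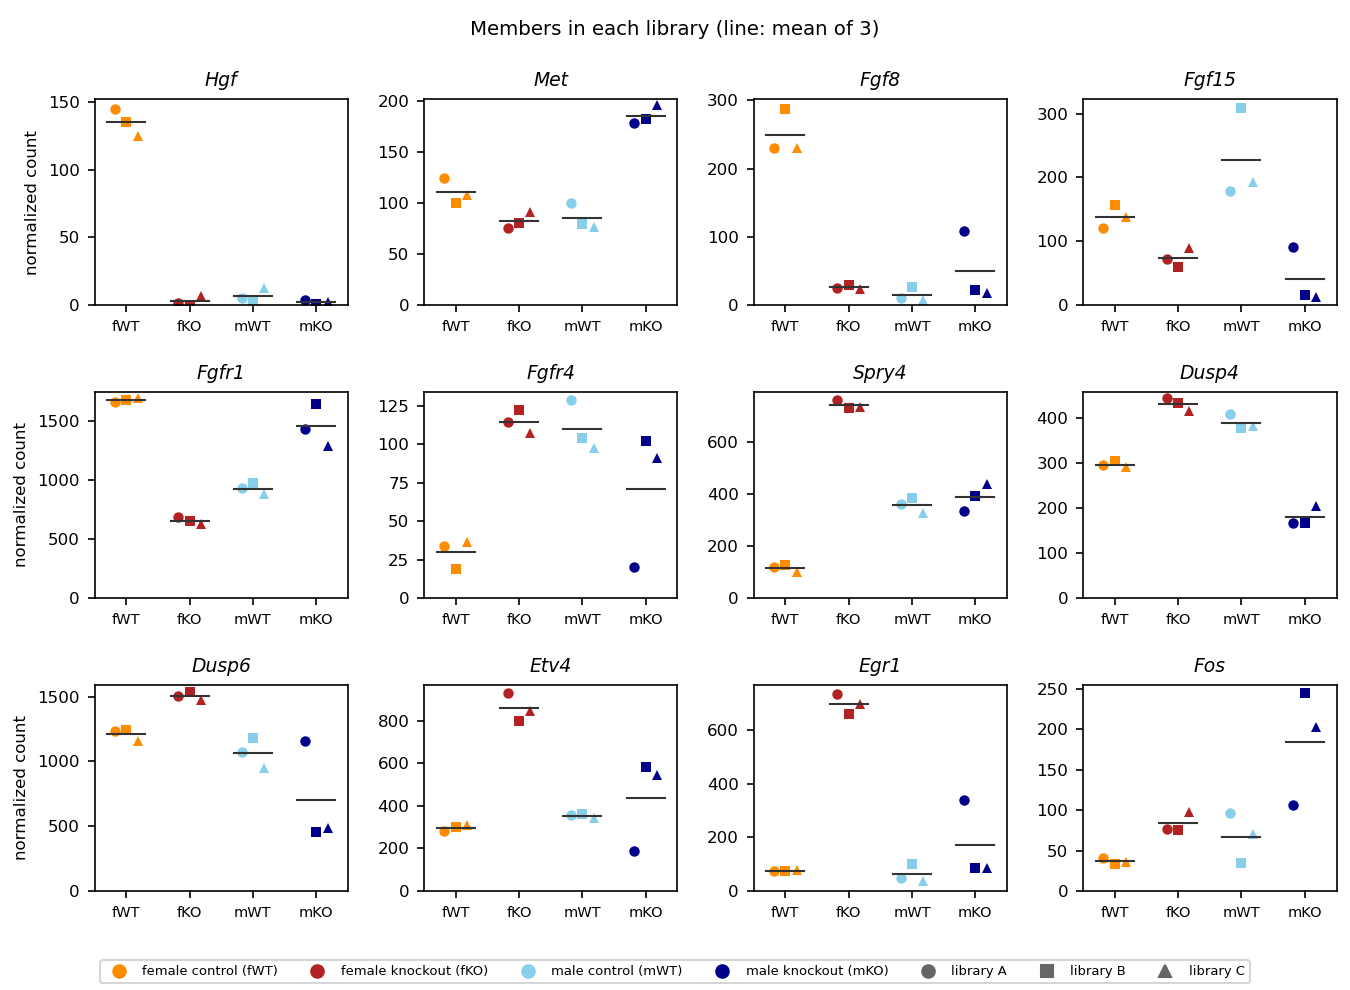
Normalized counts of 12 members in each library, with a line at the mean of 3 and every axis from 0. Hgf and Fgf8 are high in fWT, Spry4 and Egr1 are high in fKO, Dusp4 is low in all 3 mKO libraries, and for Fgfr4, Dusp6, Etv4 and Egr1 mKO A (circle) lies apart from mKO B and C.

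The ETS factors and immediate early genes, which are read as outputs of ERK, rose in females where they passed, apart from Ier3. Etv4 was 283, 302 and 308 in fWT and 933, 800.5 and 848 in fKO, and 356, 362 and 345 in mWT against 190, 581 and 546 in mKO. The fKO libraries were above all others, and mKO A was the lowest of the 12. Etv4 rose by 1.53 ± 0.07 in females (adjusted p = 6.15e-12). The male difference was 0.15 ± 0.36 with all libraries (adjusted p = 0.802) and 0.67 ± 0.11 without mKO A (adjusted p = 2.55e-03).

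Etv5, the most abundant ETS factor of the list per length, was 2306, 2456 and 2198 in fWT, 3057, 2845 and 3030 in fKO, 3224, 3561 and 3360.1 in mWT, and 2655, 2328 and 2382 in mKO. It rose by 0.36 ± 0.06 in female cells (adjusted p = 3.32e-05) and fell by 0.46 ± 0.11 on the log2 scale in male cells (adjusted p = 0.0353). Etv1 did not pass in females (-0.09 ± 0.08), and in males it was 249, 174 and 227 in mWT against 278, 116 and 115 in mKO.

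Egr1, a zinc finger factor induced within minutes of ERK activation, was 75.4, 73.6 and 76.7 in fWT and 736, 661 and 699 in fKO. Among males Egr1 was 48.9, 99.2 and 38.8 in mWT and 342, 85.1 and 86.9 in mKO. The fKO libraries were the highest by a wide margin, and mKO A was next. Egr1 rose by 3.20 ± 0.08 in females (adjusted p = 2.23e-15), a 9.17-fold difference. In males the difference was 1.24 ± 0.53 (adjusted p = 0.189), 0.58 ± 0.35 without mKO A (adjusted p = 0.303), and 0.97 ± 0.19 without mKO A and mWT B (adjusted p = 7.91e-03).

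Fos, a subunit of the AP-1 factor, was 41.2, 32.9 and 35.6 in fWT and 76.8, 75.8 and 98.0 in fKO, and 96.7, 34.1 and 70.4 in mWT against 106, 244 and 203 in mKO. It rose by 1.17 ± 0.18 in females (adjusted p = 2.41e-05), and in males the difference of 1.48 ± 0.41 fell just short (adjusted p = 0.0550), with no overlap between the groups. Its partners behaved differently. Junb was 592, 560.0 and 583 in fWT and 731, 674 and 566 in fKO, which overlapped, and 276, 222 and 221 in mWT against 501, 453 and 451 in mKO. Junb rose by 0.97 ± 0.14 in males (adjusted p = 4.61e-03). Jun passed in neither sex (0.08 ± 0.09 and 0.28 ± 0.13). Fosl1 was at most 17.2 normalized counts in any library, and 68.1% of its exon bases overlap the opposite-strand gene Ccdc85b.

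Myc, a growth regulator, was 262, 261 and 262 in fWT and 526, 423 and 489 in fKO, and 163, 256 and 142 in mWT against 247, 113 and 175 in mKO. It rose by 0.86 ± 0.08 in females (adjusted p = 6.87e-08), and the male difference was -0.09 ± 0.30 (adjusted p = 0.863). Ier2 rose by 0.64 ± 0.06 (adjusted p = 8.84e-08) and Ier3 fell by 0.92 ± 0.07 on the log2 scale in females (adjusted p = 9.29e-09). Neither passed in males with all libraries, where Ier3 was 864, 357 and 845 in mWT, so that mWT B alone lay within the mKO range of 303 to 574. Without mKO A and mWT B the male difference of Ier3 was -0.62 ± 0.07 (adjusted p = 7.18e-04).

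Endoderm genes moved with several of these members. All 10 endoderm markers (Gata4, Gata6, Sox17, Sox7, Foxa2 and 5 others) were higher in fKO than in fWT, and their sum was 294 to 354 in fWT, 5518 to 5720 in fKO, 2379 to 4344 in mWT, and 622 in mKO A against 5178 and 5362 in mKO B and C. Fgfr4 was low in the same 4 libraries with the lowest endoderm sums, and Fgfr3 was low in those 4 and in mWT B. Spry4 was not low in mKO A, at 336, and Egr1 was high there with few endoderm reads. Ttr was at 0 in 2 fWT libraries and no marker was at 0 in the other groups. Gata4 itself was 60.4 to 78.9 in fWT and 813 to 866 in fKO. In fKO and mKO the sum was mostly Cubn, at 2987 to 3022 in fKO and 3477 and 3663 in mKO B and C. Gata6 was 296 to 412 in mWT and 212 and 205 in mKO B and C. Apoa1 went the other way, at 8.62 to 50.7 in mWT and 461 and 448 in mKO B and C. In males 0 of the 10 markers were called higher, 1 was called lower and 9 were not called. The part of endoderm-like cells in the results for Fgfr3, Fgfr4, Spry4 and Etv4 was not tested.

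**Figure D5:**
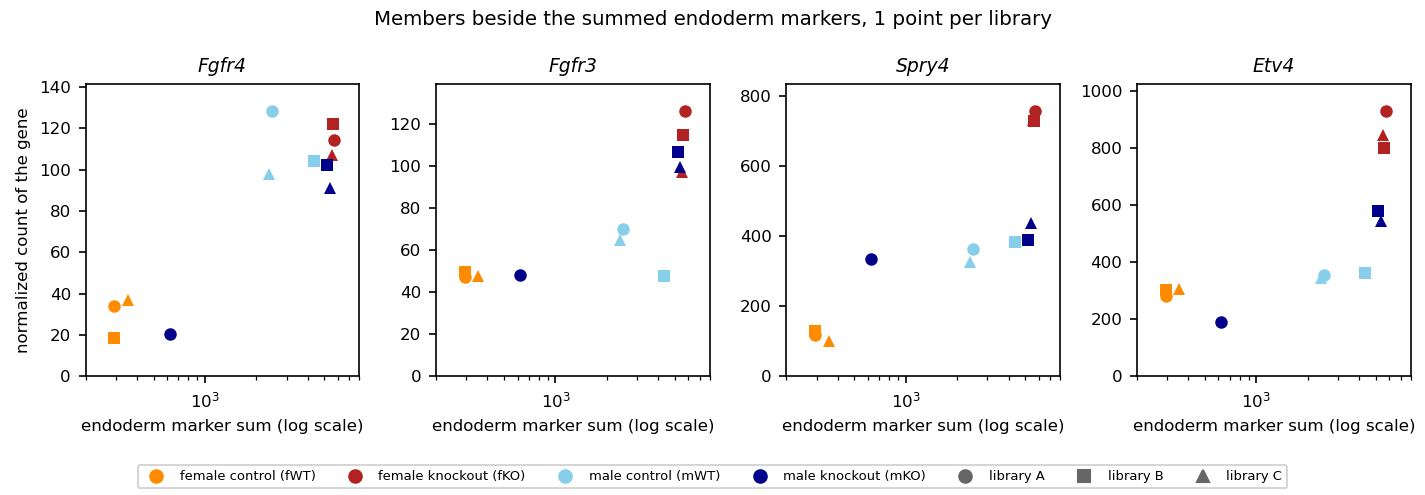
Normalized count of Fgfr4, Fgfr3, Spry4 and Etv4 in each library against the sum of 10 endoderm markers in that library (log scale on the horizontal axis). The 3 fWT libraries and mKO A lie at the left with sums of 294 to 622, and the fKO libraries lie at the right with 5518 to 5720. The sum is mostly Cubn in fKO and mKO.

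Markers of the labelled cell type were present but also moved with genotype. The 10 formative epiblast markers were detected in every library, with sums of 10182 to 10322 normalized counts in fWT, 16126 to 16770 in fKO and 10702 to 18458 in mWT, and of 11548 in mKO A against 7035 and 7223 in mKO B and C. Of the 10, 4 were higher and 5 lower in fKO, and 3 were lower in mKO. The 10 naive pluripotency markers, which should fall as EpiLCs form, summed to 4143 to 4300 in fWT and 5393 to 5607 in fKO, with 8 higher and 1 lower, and to 4435 to 5704 in mWT and 7959 to 10445 in mKO, with 5 higher. The 8 trophoblast markers summed to 239 to 266 in fWT, 373 to 387 in fKO, 180 to 297 in mWT and 937 to 1907 in mKO, with 5 higher in mKO. The sum of 5 heat shock genes was 7786 to 8119 in fWT and 11791 to 13207 in fKO, with 2 higher and 2 lower, and 0 of 5 passed in males. The part of these differences in the results for the 39 members was not tested.

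The 12 male calls depended on which libraries were used. Without mWT A, mWT C, mKO B or mKO C, 6, 3, 5 and 6 members passed. The share of all genes that passed in those 4 runs is not given here, so these counts cannot be set against it. Fgf15 passed without mKO A and in no other such run, at -2.47 to -3.81 throughout. Grb2 and Etv5 passed in neither of the runs that left out mWT A or mWT C, nor in those without mKO B or mKO C, with log2 differences of 0.64 to 0.73 for Grb2 and -0.43 to -0.50 for Etv5 in those 4 runs. Dusp5 was lost without mWT C, mKO B or mKO C (adjusted p = 0.0897, 0.0877 and 0.0751) and Spry1 without mWT C (0.0564). Without mKO A, 18 members passed, where 19.8% of all genes passed, and without mWT B 16 passed, where 21.5% did. Without both, 30 of 39 passed, against 42.9% of the 21777 genes tested. The 12 calls of the full set were among the 30 with the same sign. Both libraries were left out because they stood apart in these data, and the kept pairs were the closest of their groups. Smaller SEs follow from that choice, so the kept calls are no separate support. In that comparison of 2 against 2 libraries, Dusp6 differed by -1.10 ± 0.08 (adjusted p = 1.70e-04), Etv4 by 0.68 ± 0.07 (adjusted p = 7.74e-04), Fos by 1.42 ± 0.18 (adjusted p = 1.50e-03), Etv1 by -1.04 ± 0.11 (adjusted p = 6.60e-04) and Fgf15 by -3.57 ± 0.19 (adjusted p = 6.29e-05). Of the 30, 18 did not pass with all libraries. Of these 18, Dusp6, Etv4, Map2k1, Fos, Etv1 and Fgfr3 also passed without mKO A alone. Among the 18, those whose value without both libraries is not given above were Spred1, Spred2, Map2k1 and Map2k2. Without both, Spred1 differed by -0.28 ± 0.07 (adjusted p = 0.0181) and Spred2 by 0.49 ± 0.08 (adjusted p = 2.93e-03). Map2k1 differed by 0.51 ± 0.06 (adjusted p = 7.28e-04) and Map2k2 by 0.45 ± 0.09 (adjusted p = 9.81e-03). Leaving out mWT A and mWT C, the libraries with the most reads on receptor genes of the nose, left 1 male control and 0 members passed. The median SD of the members on the log2 scale was 0.07 in fWT and 0.10 in fKO against 0.21 in mWT and 0.19 in mKO.

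Beyond the 39 members, 104 other genes of the pathway were measured (further ligands, co-receptors, adaptors, kinases, inhibitors and ERK substrates, and the HGF activators). In females 72 of the 104 passed, 30 higher and 42 lower, and in males 17 passed, 13 higher and 4 lower, where 50.1% and 7.80% of all genes passed. Of the 21 co-receptors and cofactors, 18 passed in females, 7 higher and 11 lower. Flrt3, an FGFR-binding membrane protein, was 48.3, 53.8 and 61.1 in fWT and 375, 402 and 391 in fKO (2.82 ± 0.11, adjusted p = 5.04e-13), and Flrt2 rose by 3.04 ± 0.16 (adjusted p = 2.98e-11). Klb, the co-receptor of endocrine FGFs that pairs with Fgfr4, was 3.34 to 5.49 in fWT and 104 to 115 in fKO. In males Klb was 8.93 in mKO A against 62.8 and 78.6 in mKO B and C, the same split as Fgfr4. The proteoglycan Sdc4 rose in both sexes, by 2.71 ± 0.06 in females and 1.15 ± 0.20 in males (adjusted p = 2.30e-16 and 0.0106).

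Of the other ligands, Fgf17, which is close to Fgf8 in sequence, was 241, 254 and 223 in fWT and 25.1, 11.8 and 18.2 in fKO, and fell by 3.69 ± 0.21 on the log2 scale (adjusted p = 7.23e-11). Fgf3 was 3.29 to 5.03 in fWT and 24.3 to 35.3 in fKO (2.57 ± 0.33, adjusted p = 3.32e-06). Egr4, a relative of Egr1, was 1.01 to 4.45 in fWT and 52.5 to 79.9 in fKO (4.57 ± 0.39, adjusted p = 1.94e-08), and Dusp2, a further nuclear ERK phosphatase, was 2.22 to 9.05 and 19.4 to 28.3 (2.20 ± 0.40, adjusted p = 1.55e-04). These classes did not move in 1 direction. Of the 15 other targets and ERK substrates 8 were called higher and 5 lower in fKO, and of the 18 other inhibitors 5 higher and 7 lower. Over all genes tested 25.4% were higher and 24.7% lower. Fgfbp1, which carries FGFs out of the matrix, fell by 2.30 ± 0.14 in female cells (adjusted p = 1.58e-10) and rose by 1.43 ± 0.34 in male cells (adjusted p = 0.0354). Hpn, a protease that activates pro-HGF, fell by 2.03 ± 0.15 in females (adjusted p = 1.84e-09).

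In males the genes of this wider list that changed most were Mras, a RAS relative, which was 16.9, 22.7 and 17.2 in mWT and 53.6, 107 and 109 in mKO (2.13 ± 0.35, adjusted p = 8.20e-03), and the proteoglycan Sdc3, which was 67.8, 60.0 and 41.7 against 157, 200 and 189 (1.69 ± 0.23, adjusted p = 3.66e-03). Ksr1, a scaffold for RAF and MEK, rose by 1.31 ± 0.32 (adjusted p = 0.0386), Elk3 by 1.21 ± 0.20 (adjusted p = 8.20e-03), the heparan sulfate enzyme Hs6st1 by 1.14 ± 0.13 (adjusted p = 1.76e-03), and the adaptor Gab2 by 1.11 ± 0.27 (adjusted p = 0.0375). Erf, an ETS repressor that ERK inactivates, rose by 1.11 ± 0.14 in males (adjusted p = 2.15e-03) and by 0.75 ± 0.06 in females (adjusted p = 1.14e-08). The glypican Gpc6 fell by 1.25 ± 0.33 on the log2 scale in males (adjusted p = 0.0493), with mWT B at 181 against 497 and 437 in mWT A and C. Several of these male calls were lost when 1 library was left out, with an adjusted p of up to 0.217 for Gpc6, 0.174 for Gab2, 0.143 for Ksr1, 0.109 for Fgfbp1, 0.0853 for Sdc4, 0.0613 for Elk3 and 0.0601 for Mras. It was at most 0.0240 for Sdc3, 0.0237 for Hs6st1 and 0.0250 for Erf.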

How the data were processed

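Total RNA of 12 EpiLC lines was depleted of ribosomal RNA and sequenced as strand-specific single-end libraries. Per the labels and the study's methods, the authors mapped reads to mm9 with TopHat2 2.1.0 and Bowtie2 2.2.6.0, kept unique reads, and named HTSeq, DESeq and Cuffdiff. Counting annotation and strand setting are not given in the sources used here. The deposited tables, 1 per sex, hold for each gene a mean normalized count (a signal value, reads divided by a size factor) of each group. They also hold the authors' fold change and p-values, which were not used.

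Because a group mean is a sum of whole reads, each weighted by its library, the reads of the 3 libraries were solved from it (means up to 10000, 1 solution for every gene searched, 103 of 22911 genes not recovered in all 12). In simulation 99% of 2-fold changes were recovered in females and 95% in males. The simulation changed well-expressed genes only, gave all genes 1 common spread and held no library that stood apart. It therefore does not show how many 2-fold changes would be found in the real male libraries. limma 3.58.1 (R 4.3.3) with a mean-variance trend was run on log2(normalized count + 1), within each sex, and over 12 libraries for the interaction and the controls. Benjamini-Hochberg adjustment ran over all genes tested, and calls used 0.05. With 3 libraries a group an exact permutation test cannot go below 0.1, so none was used. No pair of libraries of a group agreed within counting noise (mean chi-square per gene 1.97 to 29.5). It was 1.97 to 2.69 in fWT, 3.51 to 4.55 in fKO, 2.31 for mWT A with C and 2.61 for mKO B with C. Pairs with mWT B gave 17.4 and 17.8, and pairs with mKO A gave 26.9 and 29.5. The study's methods give 3 independent lines per genotype. P-values measure the spread between the libraries of a group, and how separate the lines of the closest pairs are was not tested. Members and gene lists were chosen with earlier results of these data known. Every member is named. Values in each library are given for members called with a log2 difference of at least 1 and for Fgf4, Fgf8, Hgf, Met, Dusp6, Spry4, Etv4, Etv5, Egr1, Fos and Myc, and some others. Of the wider list, called genes with a log2 difference of at least 1 and a mean of at least 10 are named, up to 10 per sex. Positions and exon lengths are from GENCODE M1 (mm9). Alternatives covered pseudocount, scaling, filter, voom and left-out libraries.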

Additional observations from a re-analysis of the deposited data

Results flagged for a closer look

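The change with Kdm5c deletion differed between the sexes, by the interaction over the 12 libraries at a limma adjusted p under 0.05, for 23 of the 39 members. Values are the male change minus the female change on the log2 scale, ± SE. It was above 0 for 13 members, at 0.60 ± 0.12 for Ptpn11, 0.64 ± 0.18 for Araf, 0.65 ± 0.20 for Mapk3, 0.79 ± 0.16 for Map2k1, 0.79 ± 0.16 for Junb, 0.91 ± 0.14 for Shc1, 0.94 ± 0.19 for Dusp7, 1.23 ± 0.20 for Fgfr2, 1.39 ± 0.21 for Dusp5, 1.54 ± 0.21 for Met, 2.00 ± 0.13 for Fgfr1, 4.61 ± 0.99 for Hgf and 4.62 ± 0.79 for Fgf8. It was below 0 for 10, at -2.87 ± 0.65 for Fgfr4, -2.56 ± 0.17 for Spry4, -1.96 ± 0.61 for Egr1, -1.66 ± 0.14 for Dusp4, -1.38 ± 0.42 for Etv4, -1.06 ± 0.35 for Dusp6, -0.82 ± 0.12 for Etv5, -0.54 ± 0.18 for Spred1, -0.48 ± 0.12 for Braf and -0.32 ± 0.11 for Sos1. The adjusted p ran from 3.12e-07 for Fgfr1 and 3.56e-07 for Spry4 to 0.0484 for Sos1. In 16 of the 23 the call was kept in every run that left out 1 library, and for Araf, Dusp6, Egr1, Etv4, Mapk3, Sos1 and Spred1 it was lost in at least 1. In the same test 21.2% of all genes passed. The difference takes in the control groups too, since Fgf8, Hgf, Fgfr1, Fgfr4 and Spry4 already differed between fWT and mWT.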

How the results depend on the processing

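Counts of called members in females (31 to 33 with 1 library left out) and in the interaction (16 to 29) stayed within 1.5 times their values under every alternative run, and those between control sexes (15 to 25) did except as given here. Male counts were the least stable. With 1 library left out the members called in males ran from 3 to 18 and the other pathway genes from 3 to 37. For these runs the share of all genes is given above only without mKO A and without mWT B. In females the calls of Map2k2, Met and Ptpn11 were lost in some such run, and in males Dusp4, Fgfr2 and Junb kept theirs in all of them. Without mWT B and mKO A together (both stood apart in these data), 30 members and 55 other pathway genes passed in males. In the same run 31 members passed between control sexes. For females, the interaction and the control comparison, the share of all genes is given above only with all libraries. Their counts in other runs cannot be set against it. Without mWT A and C together (chosen after seeing the data) both male counts were 0. The causes were not tested.

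Signs changed as follows on the log2 scale. Of the values whose sign differed from that with all libraries, the 1 that passed was Ier3 between controls. Scaling by total reads gave -0.040 for Braf and -0.0059 for Sos1 in females and -0.019 for Spred1 between controls. Without mWT B and mKO A, Fgf4 gave 0.11 for the difference between the sexes and Ier3 -0.30 between controls (adjusted p = 7.61e-03). Without mWT A and C, Hgf gave 0.038, Ier2 -0.35 and Ier3 0.35 in males, Fgfr3 0.018, Spred2 -0.19, Egr1 -0.40, Fos 0.092 and Fosl1 0.25 between controls, and Map2k2 -0.059 for the difference between the sexes. With 1 library left out, ranges that crossed 0 were, in males, -0.27 to 0.42 for Fgf10, -0.29 to 0.038 for Spred1, -0.14 to 0.67 for Etv4, -0.12 to 0.30 for Ier2, -0.36 to 0.20 for Myc and -0.15 to 0.055 for Mapk3, in females -0.0016 to 0.057 for Braf, between controls -0.0010 to 0.25 for Spred2, -0.34 to 0.16 for Fosl1 and -0.30 to 0.34 for Ier3, and for the difference between the sexes -0.098 to 0.67 for Fos. Values under about 10 reads, as for Hgf outside fWT, are set by depth. No paired analysis was possible because the recovered libraries carry no replicate numbers.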
